A study of Mus musculus with 8 samples.

Results

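The genes described here are 44 genes of fibroblast matrix and contractile function, taken from a list of names (interstitial matrix, matrix enzymes, contractile and mesenchymal genes), among 19751 genes that the array's probes could be named for. Of the 44, 42 had at least 1 probe and 34 had a probe that could be tested, meaning that all arrays of 1 group or of both read it well above background. Col6a3 and Col12a1 had no probe named for them. Tnc, Postn, Lox, Eln, Col5a2, Lum, Fap and Prrx1 had probes that were too dim to test.

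Fibroblasts are the cells that build and remodel the interstitial matrix. They secrete fibrillar collagens, which are assembled with proteoglycans, fibulins and fibronectin and cross-linked by lysyl oxidases, and they turn the matrix over with metalloproteinases that are held in check by tissue inhibitors. When activated by TGF-beta or by tension they become contractile and make smooth muscle actin, under SRF with its MRTF cofactors and under YAP with TEAD factors. Embryonic stem cells (ESCs) are epithelial-like cells that mostly make basement membrane rather than interstitial matrix.

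Both groups were male mouse VV3 ESCs, which carry a Vasa::Venus transgene that reports the germ cell gene Vasa (Ddx4). The L3mbtl2-KD group (4 arrays) was transfected with siRNA against L3mbtl2, which encodes a subunit of a noncanonical polycomb repressive complex 1, and the control group (4 arrays) with AllStars, a non-silencing siRNA. RNA was hybridised to Agilent mouse arrays in 1 colour, and each value below is the log2 signal of a probe minus the 75th percentile of its array, so that 0 is a bright probe and each unit down is a halving of signal. The study's methods state that VV3 ESCs grew on STO feeders, an inactivated mouse embryonic fibroblast line, and that Vasa-positive cells were purified by fluorescence-activated cell sorting before the arrays; the methods describe the knockdown cells as Vasa-positive and give no gate for the control cells on the arrays. For bisulfite sequencing of another knockdown, control cells were sorted as Venus-negative. Whether the array controls were sorted in that way is not stated. RNA of feeder cells, of differentiated cells and of ESCs cannot be told apart in these bulk samples, nor can a difference in the sort between the groups from an effect of the siRNA. The arrays sat on 2 slides with 2 arrays of each group on each slide, and group and position on the slide cannot be told apart. Signal exceeded background at 62.0% to 66.6% of 43020 spots on the control arrays and at 59.5% to 63.9% on the L3mbtl2-KD arrays, and 4 arrays a group limit the precision.

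The siRNA target was lower in every L3mbtl2-KD sample. The L3mbtl2 probe read 0.27, −0.18, −0.21 and −0.31 on control arrays 1 to 4 and −1.45, −1.26, −1.58 and −1.73 on L3mbtl2-KD arrays 1 to 4. It fell to 37.9% of control (limma, Benjamini-Hochberg adjusted p = 0.000944), and the groups did not overlap. Ddx4, the gene of the reporter used in the sort, was 7.11-fold higher (log2 difference 2.83, SE 0.09, limma adjusted p = 4.9e-06). Since the knockdown cells were sorted as positive for that reporter, the sort itself favours this direction. The Ddx4 value is therefore not a measure of the siRNA's effect alone.

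Fibroblast matrix and contractile genes were lower after L3mbtl2 knockdown for a large share of the members measured, among them genes of decorin, type I and type III collagen, thrombospondin 1 and smooth muscle actin. The probes for decorin, type III collagen and thrombospondin 1 could be tested through the control arrays alone. Of the 34 tested members, 15 were called lower (44.1%), where 438 of all 13652 tested genes were (3.21%), with calls defined by a limma adjusted p under 0.05 and more than 2-fold. The member called higher was Loxl1 alone, 1 of 34, a share close to that of all tested genes called higher (340, or 2.49%). In bulk samples, fewer cells of a type and less RNA per cell cannot be told apart. All 4 L3mbtl2-KD arrays lay below all 4 control arrays for 18 members (52.9%), where 13.8% of all tested genes showed this. The difference was below 0 for 30 of 34 members, with a median of −0.90, and for 51.6% of all tested genes, with a median of −0.01. The median was also −0.90 with the 3 genes that were dim on every L3mbtl2-KD array set at their bounds, which it could not fail to be since these bounds lie below it. It was −0.86 within slide 1 and −0.95 within slide 2.

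The filter favours genes that are bright in either group, and 7 members entered the test only through the control group. Of these 7, Dcn, Col3a1, Thbs1, Fbln5 and Snai2 make up 5 of the 15 members called lower. With the test limited to probes above background on all arrays, 10 of 27 members were called lower, where 290 of all 12926 genes were (2.24%). With normexp background correction in place of the processed signal, 8 members were called lower and none higher, and the calls over all genes were 159 lower and 194 higher (45.0% lower) in place of 438 and 340 (56.3% lower). With quantile normalization they were 355 lower and 398 higher (47.1% lower).

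**Figure D1:**
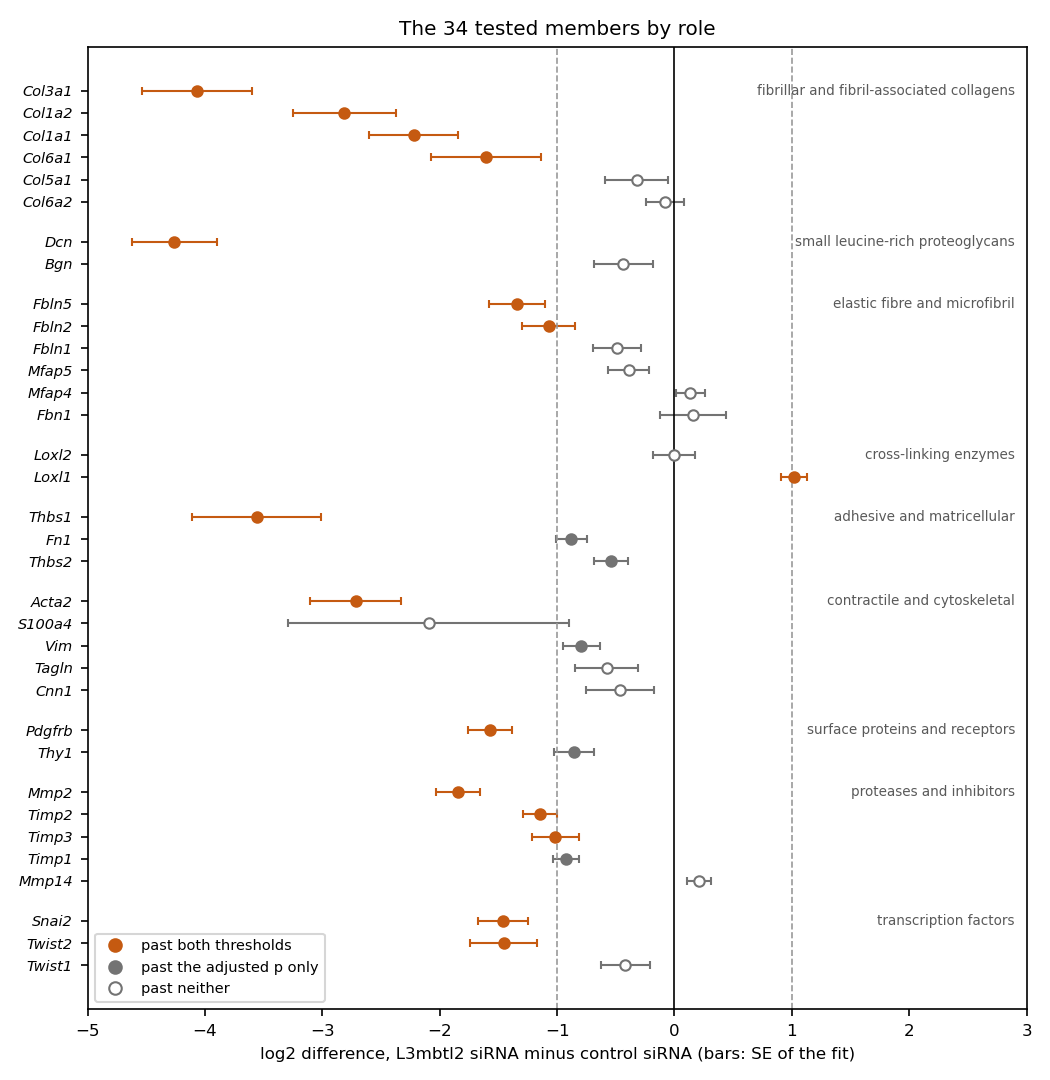
Log2 difference between L3mbtl2 siRNA and control siRNA (horizontal axis, 4 arrays a group) for each of the 34 tested members, grouped by role. Bars are the SE of the limma fit, dashed lines mark 2-fold, orange points passed both thresholds, filled grey points the adjusted p only and open points neither. The points of Dcn, Col3a1 and Snai2 are fitted values of probes not well above background on any L3mbtl2-KD array, and the highest difference was 1.01 for Loxl1.

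With 15 of 34 members called lower, RefSeq promoters (GRCm38.p6; 250 bases before to 50 after the annotated start) were read for the 25 members listed there, in 30 windows, and searched on both strands for letters bound by factors of fibroblast genes and of the L3mbtl2 complex. The searched letters were the CArG box of SRF, CATTCC of TEAD factors, TGACTCA of AP-1, TATAAA, and, for the MAX and E2F6 partners of L3mbtl2, CACGTG and GCGGGAA. A CArG box can contain TATAAA, and no other of these motifs contains another. The windows of Fbln2, Fbln5, Timp3 and Twist2, which also fell, held no match and are not shown. The 150 bases just before the start are shown for 5 genes that fell, with matches in capitals. Those for Acta2, Col3a1, Col6a1 and Timp2 hold a match and that for Col1a2 does not.
Acta2, chr19:34255374-34255523, minus strand: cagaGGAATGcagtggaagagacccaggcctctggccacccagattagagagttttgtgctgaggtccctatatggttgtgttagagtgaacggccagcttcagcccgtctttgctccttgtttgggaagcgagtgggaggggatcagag
Col1a2, chr6:4505468-4505617, plus strand: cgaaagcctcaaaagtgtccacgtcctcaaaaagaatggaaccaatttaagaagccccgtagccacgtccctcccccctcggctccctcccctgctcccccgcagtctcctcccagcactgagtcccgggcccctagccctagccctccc
Col3a1, chr1:45311388-45311537, plus strand: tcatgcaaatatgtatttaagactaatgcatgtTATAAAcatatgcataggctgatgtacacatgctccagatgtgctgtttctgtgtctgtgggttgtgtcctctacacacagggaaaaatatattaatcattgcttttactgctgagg
Col6a1, chr10:76726045-76726194, minus strand: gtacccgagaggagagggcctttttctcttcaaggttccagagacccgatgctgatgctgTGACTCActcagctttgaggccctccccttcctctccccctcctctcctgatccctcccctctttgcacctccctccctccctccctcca
Timp2, chr11:118355412-118355561, minus strand: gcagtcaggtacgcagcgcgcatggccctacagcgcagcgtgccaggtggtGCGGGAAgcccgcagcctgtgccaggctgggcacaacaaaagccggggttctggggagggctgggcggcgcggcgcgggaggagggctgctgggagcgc
Over whole windows, CATTCC was held by 5 of the 30 member windows (Acta2, Col3a1, Col6a2, Prrx1 and Timp1) and by 14.7% of all 32817 promoter windows. TATAAA was held by 8 of the 30 (of Col3a1, Postn, S100a4, Thbs2, Tnc, Twist1 and Vim) and by 13.6% of all windows. TGACTCA was in 1 member window, of Col6a1 (5.20% of all windows), GCGGGAA in 1, of Timp2 (4.60%), and CACGTG in 2, both of Fbln1 (7.15%). The 2 Fbln1 windows overlap and hold the same CACGTG site, and 2 of the TATAAA windows, both of Tnc, likewise share a site. The CArG box with every position matched was in 0 of the 30 member windows and in 1.63% of all windows. This search allowed only A or T inside the box, so near matches were neither counted nor put in capitals. The Acta2 stretch holds ccctatatgg and ccttgtttgg, which differ from the searched box by a C or G inside. The count of 0 therefore does not show that SRF sites are absent. A match describes the letters of the window and is not evidence of binding.

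Collagens form the tensile fibres of the interstitial matrix, and 4 of the 6 tested collagen members fell. Col1a1 (NM_007742), which encodes the main chain of type I collagen, read −1.87, −0.15, −0.65 and −0.23 on control arrays 1 to 4 and −3.21, −2.35, −2.98 and −3.25 on L3mbtl2-KD arrays 1 to 4. It fell to 21.4% of control (log2 difference −2.22, SE 0.38, limma adjusted p = 0.00619). Its partner chain Col1a2 (NM_007743) read −0.96, 0.75, 0.32 and 0.90 in control and −2.81, −1.86, −2.30 and −3.27 in L3mbtl2-KD, 7.02-fold lower (limma adjusted p = 0.00438). For both chains the groups did not overlap, and control array 1 was the lowest control array. Col3a1 (NM_009930), the chain of type III collagen found in loose tissue, read −3.89, −1.73, −2.34 and −2.09 in control and −7.00, −5.82, −6.99 and −6.51 in L3mbtl2-KD. Its probe was not well above background on any L3mbtl2-KD array, so that it was at least 7.81-fold lower in the processed signal (limma adjusted p = 0.00119), while normexp correction gave a smaller difference of −1.55. Such a bound sets the control mean against, on each dim array, the lowest signal of any probe well above background or the probe's own value where that is higher. That lowest signal is not a limit of detection. On L3mbtl2-KD array 1 it was −5.62, and Dcn read −5.31 there without being well above background. Bounds given as at least a fold thus hold for the processed signal alone, and normexp falls were smaller than the bounds for Dcn, Col3a1 and Snai2.

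Col6a1 (NM_009933), a chain of the beaded filaments of type VI collagen, read −3.56, −2.37, −2.80 and −1.51 in control and −5.02, −3.43, −3.80 and −4.41 in L3mbtl2-KD. The difference was −1.61 (SE 0.47, limma adjusted p = 0.0467), and L3mbtl2-KD array 2 lay above control array 1. This call was lost without any 1 of control arrays 2, 3 and 4 or L3mbtl2-KD arrays 1, 3 and 4, and the limma or one-way adjusted p ran from 0.0210 to 0.109 over the alternatives. With normexp correction the difference was −0.78, short of 2-fold. Its partner chain Col6a2 did not pass (difference −0.08, SE 0.16, limma adjusted p = 0.782), with all arrays between −4.97 and −4.27, and the sign of this small difference turned under normexp correction and quantile normalization. Col5a1, a chain that regulates fibril width, did not pass either (difference −0.32, SE 0.27, limma adjusted p = 0.447), and the probe of Col5a2 was not well above background on any array.

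**Figure D2:**
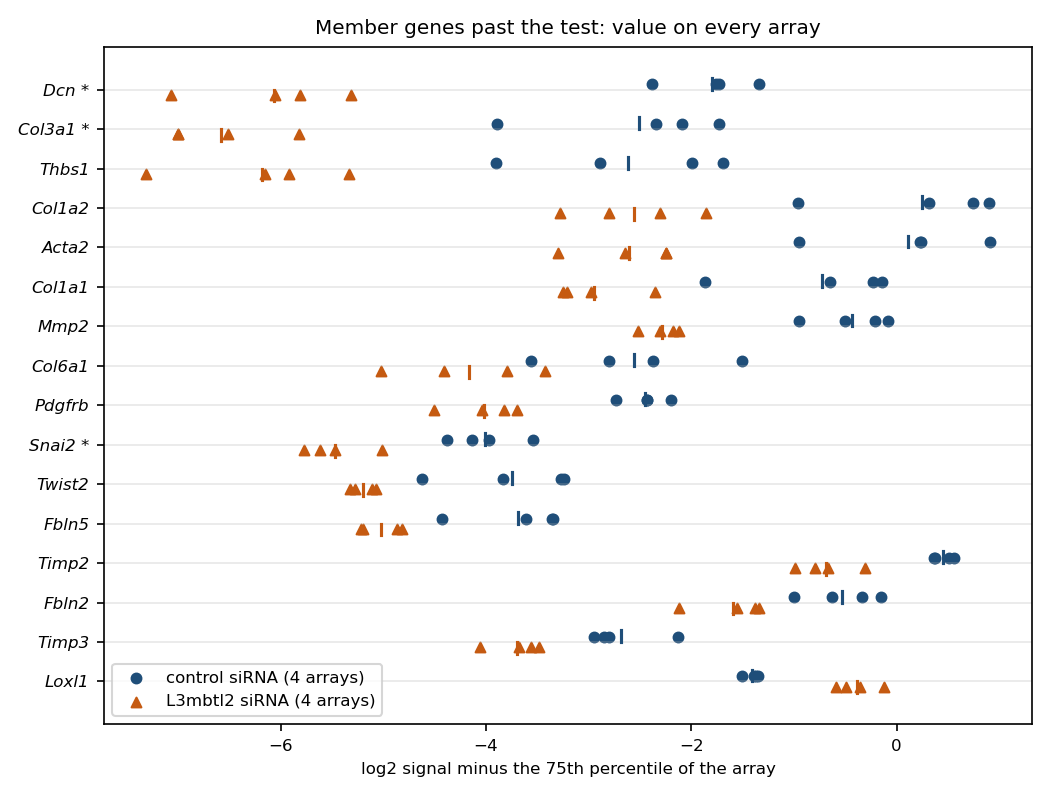
Log2 signal minus the 75th percentile of the array (horizontal axis) on every array for the 16 members that passed the test, with control siRNA as circles, L3mbtl2 siRNA as triangles and group means as ticks. Levels of different probes are not comparable; asterisks mark genes not well above background on any L3mbtl2-KD array, and among the 15 genes that fell the groups overlap for Col6a1 alone.

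The proteoglycan decorin fell to near background. Dcn (NM_007833), which binds collagen fibrils and sets their spacing, read −2.39, −1.76, −1.73 and −1.34 in control and −5.31, −6.05, −5.82 and −7.07 in L3mbtl2-KD. In the processed signal it was at least 12.1-fold lower (limma adjusted p = 0.000369), since its probe was not well above background on any L3mbtl2-KD array. Normexp correction gave a smaller difference of −1.88. Biglycan (Bgn), a related proteoglycan, had a mean of −2.07 ± 0.44 in control and −2.51 ± 0.38 in L3mbtl2-KD (SD, n = 4 arrays each) and did not pass (limma adjusted p = 0.266). The probe of lumican (Lum), the third of this family, was not well above background on any array.

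Among the 6 tested genes of elastic fibres and microfibrils, 2 fell and both were fibulins. Fbln5 (NM_011812), a fibulin needed to assemble elastin, read −3.34, −4.42, −3.36 and −3.61 in control and −4.86, −4.82, −5.20 and −5.22 in L3mbtl2-KD. It fell to 39.5% of control (limma adjusted p = 0.00747), with no overlap, and control array 2 was its lowest control array; 3 of 4 L3mbtl2-KD arrays were well above background, and its second probe was too dim to test. With normexp correction the difference was −0.45, short of 2-fold. Fbln2 (NM_007992), a fibulin of microfibrils and basement membrane, read −1.0, −0.34, −0.63 and −0.15 in control and −2.12, −1.38, −1.55 and −1.34 in L3mbtl2-KD. It was 2.10-fold lower (difference −1.07, SE 0.23, limma adjusted p = 0.0143), with no overlap but close to the 2-fold threshold. The fold was less than the threshold without control array 4 (difference −0.94) or L3mbtl2-KD array 1 (−0.90), and with normexp correction (−0.92). The other 4 tested genes did not pass, though in the paired limma fit with a replicate block Fbln1 (adjusted p = 0.00351; 0.00351 to 0.285 over the alternatives) and Mfap5 (0.0312; 0.0312 to 0.282) passed the adjusted p alone. Their differences were −0.49 for Fbln1, −0.39 for the microfibril protein gene Mfap5, 0.13 for Mfap4 and 0.16 for fibrillin 1 (Fbn1), the backbone of microfibrils, and the 2 probes of Fbln1 differed little (−0.49 and −0.44). Elastin (Eln) was well above background on 2 control arrays and on none of the L3mbtl2-KD arrays, and was not tested.

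Cross-linking enzymes gave the member that rose. Loxl1 (NM_010729), a lysyl oxidase that cross-links elastin, read −1.39, −1.35, −1.51 and −1.37 in control and −0.59, −0.49, −0.36 and −0.12 in L3mbtl2-KD. It rose 2.02-fold (difference 1.01, SE 0.11, limma adjusted p = 0.000967), and all L3mbtl2-KD arrays were above all control arrays. Its second probe was higher by 0.88 on the log2 scale (limma adjusted p = 0.0114), short of 2-fold, and the first fell short of 2-fold without control array 3 (0.98) or L3mbtl2-KD array 4 (0.93) and with normexp correction (0.89). Loxl2, a related enzyme that acts on collagen, had 3 tested probes with differences of −0.09, −0.01 and −0.04, none of which passed. Lox itself had 2 probes near background and was not tested.

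Of the adhesive and matricellular proteins, Thbs1 fell past both thresholds. Thbs1 (NM_011580), which encodes thrombospondin 1, an activator of latent TGF-beta, read −3.90, −1.69, −2.88 and −1.99 in control and −6.15, −5.92, −5.34 and −7.31 in L3mbtl2-KD. The fitted difference was −3.56 (SE 0.55, limma adjusted p = 0.00391), with no overlap. Only 1 of 4 L3mbtl2-KD arrays was well above background, so the size of this fall is uncertain, and normexp correction gave −1.37. Fibronectin (Fn1, NM_010233), the adhesive scaffold onto which collagen is laid, read 5.50, 5.62, 5.55 and 5.32 in control and 4.47, 4.93, 4.70 and 4.37 in L3mbtl2-KD. Its groups did not overlap and the adjusted p passed (limma, 0.00392), but the difference was 1.84-fold. Thbs2, the gene of thrombospondin 2, also passed the adjusted p alone, with a difference of −0.54 (SE 0.15, limma adjusted p = 0.0340). For tenascin C (Tnc), all L3mbtl2-KD arrays lay below all control arrays on both probes, but neither probe was well above background on every control array and it was not tested. Periostin (Postn) was not well above background on any array.

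Of the 5 tested contractile and cytoskeletal genes, 1 was called lower. Acta2 (NM_007392), the smooth muscle actin of contractile fibroblasts, read −0.95, 0.24, 0.23 and 0.91 in control and −2.25, −3.30, −2.65 and −2.25 in L3mbtl2-KD. It was 6.57-fold lower (difference −2.72, SE 0.39, limma adjusted p = 0.00302), every L3mbtl2-KD array was below every control array, and control array 1 was again the lowest of its group. Transgelin (Tagln), an actin-binding protein of smooth muscle, read 1.73, 2.94, 2.85 and 3.04 in control and 1.99, 1.91, 2.16 and 2.18 in L3mbtl2-KD. It did not pass (difference −0.58, SE 0.27, limma adjusted p = 0.173). Control array 1 was below all L3mbtl2-KD arrays while the other 3 control arrays were above them. Without control array 1 the difference was −0.88, still short of 2-fold, and it passed the adjusted p alone (limma, 0.00227; 0.00227 to 0.334 over the alternatives). Calponin 1 (Cnn1), which restrains actomyosin, had a mean of 0.55 ± 0.52 in control and 0.09 ± 0.43 in L3mbtl2-KD (SD, n = 4 arrays each) and did not pass (limma adjusted p = 0.304), though it passed the adjusted p alone in the paired fit (0.0185; 0.0185 to 0.572 over the alternatives). Whether Acta2 differed more than Tagln or Cnn1 was not tested.

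Vimentin (Vim), the intermediate filament of mesenchymal cells, read 3.46, 3.29, 3.63 and 3.74 in control and 2.75, 2.35, 2.88 and 2.97 in L3mbtl2-KD, a 1.73-fold difference that passed the adjusted p alone (limma, 0.0110). S100a4, a calcium-binding protein used as a fibroblast marker, had the largest SD of the tested members in both groups (1.51 in control and 2.42 in L3mbtl2-KD). Its brighter probe read −0.66, −1.98, −4.29 and −2.02 in control and −1.74, −3.41, −4.69 and −7.47 in L3mbtl2-KD, overlapped between groups and did not pass (difference −2.09, SE 1.20, limma adjusted p = 0.261). The value on L3mbtl2-KD array 4, which enters the SD above, was not well above background. The difference of this brighter probe was −1.05 without L3mbtl2-KD array 4 and −2.96 without L3mbtl2-KD array 1. S100a4 also had a dimmer probe. Its second probe read −1.11, −2.32, −3.80 and −2.40 in control and −4.17, −3.30, −4.22 and −5.16 in L3mbtl2-KD. That probe had a difference of −1.81 (limma adjusted p = 0.0583), which passed in the paired fit with a replicate block (adjusted p = 0.0425) and with the slide as a block (0.0217); over all alternatives its adjusted p ran from 0.0217 to 0.136.

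The surface proteins gave 1 gene called lower among the 2 tested. Pdgfrb (NM_001146268), the PDGF receptor of fibroblasts and pericytes, read −2.73, −2.20, −2.44 and −2.43 in control and −4.04, −3.70, −3.83 and −4.50 in L3mbtl2-KD. It fell to 33.7% of control (difference −1.57, SE 0.19, limma adjusted p = 0.00132), with no overlap. With normexp correction the difference was −0.84, short of 2-fold. Thy1, a surface glycoprotein of fibroblasts, had a mean of −1.18 ± 0.32 in control and −2.04 ± 0.17 in L3mbtl2-KD (SD, n = 4 arrays each) and passed the adjusted p alone (limma, 0.0105). Fibroblast activation protein (Fap) was not well above background on any array.

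Matrix metalloproteinase 2 fell, as did 2 of its inhibitors. Mmp2 (NM_008610), a gelatinase that degrades denatured and basement membrane collagen, read −0.95, −0.09, −0.50 and −0.21 in control and −2.52, −2.12, −2.18 and −2.31 in L3mbtl2-KD. It was 3.60-fold lower (difference −1.85, SE 0.19, limma adjusted p = 0.000743), with no overlap. Mmp14, the membrane-bound protease that activates proMMP2, did not pass (difference 0.21, SE 0.10, limma adjusted p = 0.186). It was higher in all 4 same-numbered pairs and passed the adjusted p alone in the paired fit (0.0160; 0.0160 to 0.376 over the alternatives).

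Timp2 (NM_011594), which inhibits metalloproteinases and also helps MMP14 to activate proMMP2, read 0.56, 0.38, 0.36 and 0.51 in control and −0.79, −0.31, −0.67 and −0.99 in L3mbtl2-KD. It was 2.21-fold lower (limma adjusted p = 0.00169), and its second probe, with a difference of −0.90, passed the adjusted p alone (limma, 0.0149). Timp3 (NM_011595), an inhibitor that stays bound to the matrix, read −2.95, −2.85, −2.80 and −2.13 in control and −4.06, −3.48, −3.56 and −3.68 in L3mbtl2-KD. It was 2.02-fold lower (limma adjusted p = 0.0112), and fell short of 2-fold without control array 4 (difference −0.83), without L3mbtl2-KD array 1 (−0.89), after quantile normalization (−0.89) and with normexp correction (−0.56). Timp1, the secreted inhibitor of the same family, had a mean of 1.92 ± 0.14 in control and 0.99 ± 0.17 in L3mbtl2-KD (SD, n = 4 arrays each) and passed the adjusted p alone (limma, 0.00146). For all 3 inhibitors and for Mmp2 the groups did not overlap.

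Among the transcription factors of mesenchymal identity, 2 of 3 tested genes fell. Twist2 (NM_007855), a helix-loop-helix factor of dermal and other mesenchyme, read −4.63, −3.24, −3.83 and −3.27 in control and −5.32, −5.11, −5.28 and −5.08 in L3mbtl2-KD. It fell to 36.5% of control (difference −1.45, SE 0.28, limma adjusted p = 0.0106), with no overlap, and was not called with normexp correction (difference −0.54). Snai2 (NM_011415), a zinc finger repressor of epithelial genes, read −4.38, −3.54, −4.14 and −3.97 in control and −5.01, −5.62, −5.47 and −5.77 in L3mbtl2-KD. In the processed signal it was at least 2.42-fold lower (limma adjusted p = 0.00320), with no L3mbtl2-KD array well above background. With normexp correction the difference was −0.31 and it was not called. Twist1, the relative of Twist2, did not pass (difference −0.42, SE 0.21, limma adjusted p = 0.200), and both probes of Prrx1, a homeobox factor of limb and skin mesenchyme, were not well above background on any array.

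The control arrays differed among themselves in these genes. Control array 1 was the lowest control array for 21 of the 34 tested members (61.8%), where it was the lowest for 31.4% of all tested genes, and for 13 of the 15 members called lower. Over the 15, control array 1 lay below the mean of the other 3 control arrays by a median of −0.78 on the log2 scale, and over the 6 collagens by a median of −1.43. Without control array 1 the same 15 members were called lower, with none lost and none gained. All 15 were lower in each of the 4 same-numbered pairs of arrays and within both slides. For the 14 whose groups did not overlap this could not be otherwise, so that it adds information for Col6a1 alone. In all, 24 tested members were lower in every pair (70.6%), as were 4463 of all genes with 4 pairs (32.8%), and 2 members, Loxl1 and Mmp14, were higher in every pair. The limma adjusted p was passed by 20 members lower and 1 higher in the unpaired fit and by 23 and 2 in the paired fit, where 2749 (20.1%) and 6284 (46.0%) of all tested genes passed it. The summed linear signal of the 42 members with a probe was 76.8, 90.1, 86.7 and 87.3 times the 75th percentile in control and 44.5, 53.3, 51.5 and 47.4 in L3mbtl2-KD, with Fn1 the brightest probe in the sum.

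**Figure D3:**
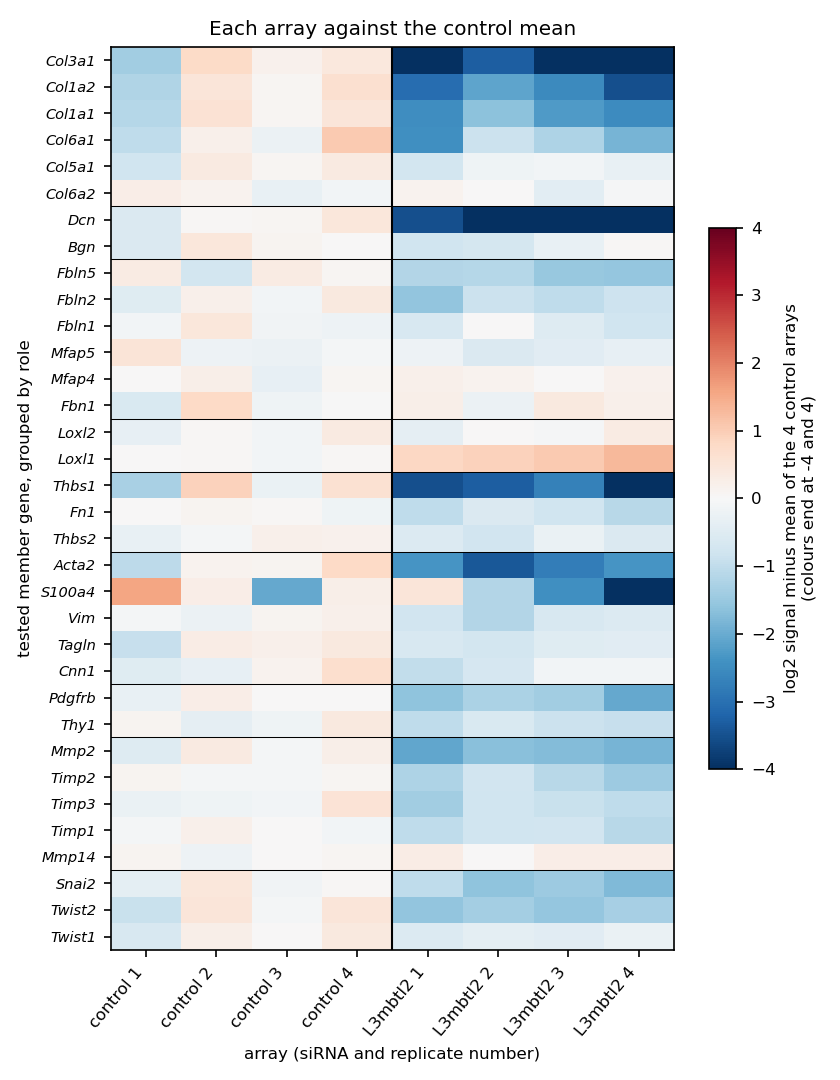
Log2 signal of each tested member (vertical axis, grouped by role) on each array (horizontal axis) minus the mean of the 4 control arrays, in colours that end at −4 and 4. Control array 1 is below the other control arrays for most collagens, Thbs1, Acta2 and Tagln, and the L3mbtl2-KD arrays are lower for most members apart from Loxl1.

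Of the 20 tested genes that make and process collagen, which include prolyl and lysyl hydroxylases and the collagen chaperone Serpinh1, 0 were called in either direction by limma or by the one-way test. The limma adjusted p alone was passed by 3 in the lower direction and 0 in the higher, 4 had an unadjusted limma p under 0.05 in the lower direction and 2 in the higher, and the median difference was −0.14. Of 20 tested TGF-beta pathway genes, 3 were called lower (1 with normexp correction) and 0 higher, with a median of −0.13. The ligand Tgfb2 was at least 4.65-fold lower in the processed signal (limma adjusted p = 0.000575). Tgfb3 fell to 29.2% of control (limma adjusted p = 0.00315) and the induced matrix protein gene Tgfbi to 27.6% (limma adjusted p = 0.00252). With normexp correction Tgfbi alone was called.

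Of 24 tested genes of SRF, MRTF and YAP, 2 were called lower (0 with normexp correction) and 0 higher, with a median of −0.23. The YAP target Ankrd1 was at least 1.95-fold lower in the processed signal (limma adjusted p = 0.000478). This bound is under 2-fold, so that the call of Ankrd1 rests on the fitted value of a dim probe. For the other, 1 probe of caldesmon (Cald1) had a difference of −1.04 (0.00539) where its brighter probe had −0.48 and did not pass. The call of Cald1 was lost with normexp correction, with quantile normalization and without control array 2 or L3mbtl2-KD array 4. It is also absent where the brighter probe alone stands for the gene. Of 17 tested cell-matrix receptors, 2 were called lower (1 with normexp correction) and 0 higher, with a median of −0.28. Itga8, an integrin chain of mesenchymal cells, was at least 3.84-fold lower in the processed signal (limma adjusted p = 8.3e-05). Itga9 fell to 46.9% of control (limma adjusted p = 0.00111).

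Of 29 listed fibroblast genes outside the matrix, 17 were tested, 8 were called lower and 1 higher (4 and 0 with normexp correction), and the median was −0.48. With probes above background on all arrays, 6 were called lower and 0 higher. Gas1, named after its value was seen, was called on 1 probe with overlapping groups (difference −1.10), while its brighter probe had −0.06, and its call was lost in most alternatives, the paired fit and 6 of the 8 fits that left out an array among them. Annexin 1 (Anxa1) fell to 10.8% of control (limma adjusted p = 0.00142) and the receptor kinase gene Axl to 29.8% (0.00122). Pleiotrophin (Ptn) and the homeobox gene Meox1 also fell (limma adjusted p = 0.00192 and 0.000659), with fitted differences of −4.01 and −3.15 that rest on 1 and 2 of 4 L3mbtl2-KD arrays well above background. The growth factor gene Fgf7, named after its value was seen, was called higher with a fitted difference of 1.21 (limma adjusted p = 0.00848). Its probe was well above background on 3 of 4 control arrays, so the size of this rise is uncertain. Fgf7 was not called with the test limited to probes above background on all arrays. The summed linear signal of this list was 20.7, 29.3, 30.9 and 25.1 in control and 14.8, 23.2, 27.6 and 18.4 in L3mbtl2-KD, with Lgals1 the brightest probe. Cav1, Cav2, Hgf, Meox2, Osr1, Tbx5, Tcf21, Ptx3, Il6, Dpt, Mgp and Dpep1 were too dim to test, as were Lum, Fap and Prrx1 among the members. Whether a smaller share of fibroblast-like cells in the L3mbtl2-KD samples has a part in the lower values of the members was not tested.

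Of 13 tested basement membrane genes, 4 were called lower (3 with normexp correction) and 0 higher, with a median of −0.40. The laminin chain Lama1 fell to 22.1% of control (limma adjusted p = 0.000629) and the type IV collagen chains Col4a2 to 22.9% (0.00089) and Col4a1 to 27.4% (0.000821). The fourth was nidogen 1 (Nid1), for which 1 probe had a difference of −1.32 (limma adjusted p = 0.0238; 1 of 4 L3mbtl2-KD arrays well above background) and the brighter one −0.79, short of 2-fold. The call of Nid1 was lost with normexp correction, with no filter, with the filter on all arrays, in the adjusted one-way test and without control array 1 or 3. It is also absent where the brighter probe alone stands for the gene.

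Of 9 tested primitive endoderm markers, 5 were called lower and 0 higher, with a median of −1.10, and 2 were called lower with normexp correction (Cubn and Sox17). With the test limited to probes above background on all arrays, 2 were called lower (Amn and Cubn). Gata6, named after its value was seen, did not pass (difference 0.06, limma adjusted p = 0.883). The receptor gene Cubn fell to 10.8% of control (limma adjusted p = 0.000541). The factor gene Sox17 fell to 23.9% (limma adjusted p = 0.00590), with 3 of 4 L3mbtl2-KD arrays well above background. Foxa2 was at least 2.45-fold lower in the processed signal (limma adjusted p = 0.00235) and was not called with normexp correction. The adaptor gene Dab2 had a fitted difference of −2.53 (limma adjusted p = 0.00206), with 1 of 4 L3mbtl2-KD arrays well above background. The fifth, Amn, had a difference of −1.10 (limma adjusted p = 0.0300) and was named after its value was seen. The summed linear signal of this list was 5.59, 4.72, 4.19 and 6.59 in control and 2.86, 3.18, 2.79 and 2.64 in L3mbtl2-KD, with Lrp2 the brightest probe and all 9 genes bright enough to test. The part of these cells in the members' values was not tested.

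Lists of other cell types held few calls over few tested genes, where 3.21% of all tested genes were called lower and 2.49% higher. Not tested were 6 of 10 macrophage and blood genes, 3 of 7 endothelial genes and 4 of 9 muscle genes. The epithelial list had 1 of 9 tested genes called lower, Cldn4 (28.1% of control, limma adjusted p = 0.000982), and 0 higher, with a median of −0.38. Counting Cldn4, 3 of the 9 passed the limma adjusted p in the lower direction and 1 in the higher. At an unadjusted limma p under 0.05, 5 were lower. The endothelial list had 1 of 4 called higher, Tie1 (3.04-fold, limma adjusted p = 0.0149), and 0 lower, with a median of −0.02. No gene was called by limma or by the one-way test among 14 pluripotency genes (median −0.25), 4 macrophage and blood genes (−0.14), 5 skeletal and cardiac muscle genes (−0.09) and 10 housekeeping genes (0.04). At an unadjusted limma p under 0.05 these lists had 5, 1, 1 and 0 genes lower and 1, 0, 1 and 1 genes higher. In the directions without a call for the lists above, the one-way test also called none, and an unadjusted limma p under 0.05 was reached in the higher direction by 1 TGF-beta pathway gene, 2 genes of SRF, MRTF and YAP, 1 receptor, 1 epithelial gene and 0 basement membrane or primitive endoderm genes, and in the lower direction by 1 endothelial gene. The pluripotency list, which marks the labelled cell type, had a summed signal of 342.1 to 380.3 in control and 331.2 to 378.1 in L3mbtl2-KD, with Dppa5a the brightest probe. Within that list Klf4, named after its value was seen, was lower by −0.70 and passed the adjusted p alone (limma, 0.0274). Dppa4, named after its value was seen too, was higher by 0.31 and passed the adjusted p alone (limma, 0.0295). Nanog, also named after its value was seen, did not pass (difference −1.32, limma adjusted p = 0.0962) but was called lower without L3mbtl2-KD array 4. Where a list had no call in a direction, alternatives at the same thresholds also called P3h2 (collagen processing) and Tek (endothelial) lower with no filter and Actc1 (muscle) lower without control array 1. They called Myh3 (muscle) higher with quantile normalization and without control array 1 or L3mbtl2-KD array 2. Each of these 4 was named after its value was seen.

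**Figure D4:**
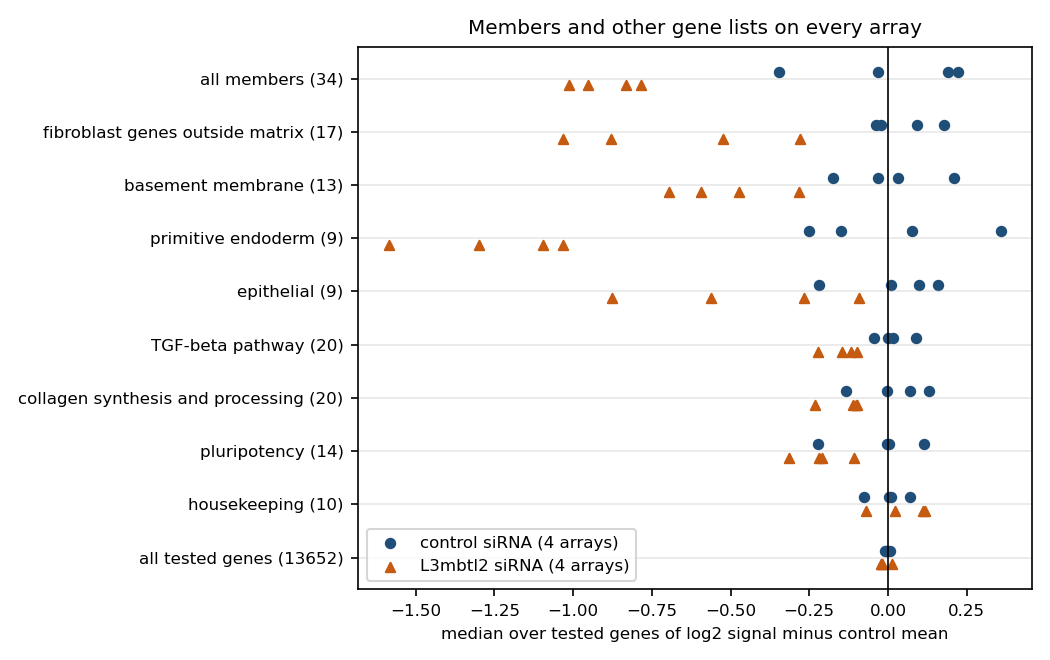
Median over the tested genes of a list (number in parentheses) of the log2 signal minus the control mean (horizontal axis), 1 point an array, for control siRNA (circles) and L3mbtl2 siRNA (triangles). The members lie between −0.35 and 0.22 on the control arrays and between −1.01 and −0.78 on the L3mbtl2-KD arrays, primitive endoderm markers between −1.59 and −1.03 on the latter, and all tested genes near 0 throughout.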

How the data were processed

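Total RNA of 8 samples was labelled with Cy3 and hybridised to 1 array each. The authors deposited Feature Extraction 10.7.3.1 files with the spot intensity per array, background-corrected by that software, and a table of log2 values, which matched the intensities after a 75th percentile shift and centring of each probe on its median over arrays (r of at least 0.9999 over 39242 probes; column medians from −0.06 to 0.08). Here log2 processed intensity minus each array's 75th percentile was averaged per probe, without control spots and outlier-flagged spots, for 39429 probes, of which 26055 were named through RefSeq accessions. limma 3.58.1 in R 4.3.3 (lmFit, eBayes) compared 4 L3mbtl2-KD with 4 control arrays over the 23518 probes that all arrays of 1 or both groups read well above background, 78 of them with a missing value. The Benjamini-Hochberg adjustment covered every tested probe. Genes were called where 1 probe had an adjusted p under 0.05 and more than 2-fold; other values are of a gene's brightest tested probe.

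Members and lists were chosen with earlier results of these data known. The rule for named genes was all members, every-array values for those called or with probes that disagree, and up to 4 called genes of each other list by size of difference. Replicates are described as biological. Same-numbered arrays of the 2 groups deviated together (correlations 0.377 to 0.582, against −0.437 to 0.247 for other pairs). They also sat in adjacent positions on the same slide, so that pairing of the samples and place on the slide cannot be told apart. The paired fit takes the replicate numbers as pairs. Alternatives were normexp (offset 50, on median spot signals), quantile normalization, the deposited table, other filters, thresholds and tests, slide and replicate blocks, and leaving out each array.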

Additional observations from a re-analysis of the deposited data

Results flagged for a closer look

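Transgelin (Tagln) on control array 1 stood apart from the other 3 control arrays, at 1.73 against a mean of 2.94, with a gap that took up 0.860 of the range of the group. Without that array the difference between L3mbtl2-KD and control was −0.88. This was 1 of 68 groups of 4 arrays examined over the 34 tested members, where chance flags about 1 in 20 groups, or 3.40 here.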

How the results depend on the processing

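The count of members called lower, 15, was 10 to 20 under the alternatives that kept all arrays, other than normexp background correction, which gave 8 lower, 0 higher and a median of −0.58; the cause was not tested. The deposited table gave the same 15. Without each array in turn the count ran from 12 to 16, the count called higher from 0 to 1 (0 without control array 3 or L3mbtl2-KD array 4) and the median from −0.97 to −0.86. In the paired fit with a replicate block, 16 members were called lower and 1 higher with a median of −0.90. The block added S100a4 and changed no other member's call. Over all tested genes, 46.0% passed the adjusted p in that fit and 20.1% in the unpaired fit. With no filter on dim probes Tnc was called and Col6a1 was not. Small differences that did not pass turned sign for Col6a2 (0.056 with normexp, 0.11 with quantile normalization), and ran across 0 as each array was left out for Col6a2 (−0.17 to 0.039), Fbn1 (−0.049 to 0.42) and Loxl2 (−0.12 to 0.11). With normexp, Col6a1 (−0.78), Fbln2 (−0.92), Fbln5 (−0.45), Timp3 (−0.56), Pdgfrb (−0.84), Twist2 (−0.54), Snai2 (−0.31) and Loxl1 (0.89) no longer passed. Among the other lists' named genes, Tgfb2, Tgfb3, Ankrd1, Itga9, Axl, Fgf7, Foxa2, Dab2, Amn, Cald1, Nid1 and Gas1 also fell short with normexp, Itga9 with quantile normalization and without control array 1 too, and Amn with no filter, with the adjusted one-way test and in most fits that left out an array. Signal near background limits Dcn, Col3a1, Thbs1 and Snai2, whose falls are bounds or rest on few bright L3mbtl2-KD arrays. With probes above background on all arrays, 2 TGF-beta pathway genes, 1 gene of SRF, MRTF and YAP and 1 receptor were called lower.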
